A study of Mus musculus with 6 samples.

Results

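The transcripts described here are those of 40 genes of glycolysis and of the response to low oxygen. They were taken by gene symbol from the 47606 genes listed for each library, and all 40 symbols were found. The list holds 5 genes of glucose entry and hexokinase, 7 of upper glycolysis, 7 of lower glycolysis, 6 of lactate and pyruvate handling, 2 fructose 2,6-bisphosphate enzymes (PFKFB), 10 hypoxia-inducible genes, and Hif1a with 2 of its hydroxylases. Averaged over the 6 libraries, 35 of the 40 genes reached 1 FPKM or more, and these were tested. FPKM is a fragment count adjusted for the length of the transcript and the size of the library, so it is a level per length. The other 5 genes were Aldoc, Eno2, Ldhb, P4ha2 and Adm, and they are given by value only.

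RNA was sequenced from mouse 32D cells, a myeloid progenitor line grown in interleukin 3 (1 ng/mL). The study is about an enhancer of Cebpe, which encodes a granulocyte transcription factor, and compares an empty vector with 2 guides, which its design text calls a knock-down. All 6 libraries came from cells with dCas9-KRAB, in which a non-cutting Cas9 carries a repressor domain. The cells received lentivirus with an empty vector (EV, 2 libraries), with guide sg2 (2 libraries) or with guide sg5 (2 libraries), followed by a week of puromycin, per the labels' protocols. Each group has a library numbered 1 and a library numbered 2. The second sg5 library is named sg2 in its source name and genotype and was grouped by its title. The labels do not say that the replicates were separate cultures, so the p-values here rest on the spread among 6 libraries, and that spread may be technical. In bulk RNA, fewer cells of a type and less RNA per cell cannot be told apart.

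The implied depth was between 31700000 and 45700000 fragments per library, and between 21239 and 21867 genes were above 0. Libraries with the same number lay closer to each other than libraries of the same group: 6 of 6 correlated best with a library of their own number. The axis of most variance held 55.8% of the variance. RNAs shorter than 200 nt took 6.77, 9.03 and 9.67% of the summed FPKM in the libraries numbered 1 and 16.4, 21.5 and 15.4% in those numbered 2 (EV, sg2 and sg5 in each case). Of 12 myeloid progenitor markers, 10 had a mean of at least 1 FPKM, while Kit was at 0 in every library and Cd34 was at most 0.329 FPKM. The 2 EV libraries held 42.0 and 100.4 FPKM of Cebpe, and the 4 guide libraries 14.4 to 22.7.

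Glycolysis turns glucose into pyruvate in a fixed order of steps. Glucose enters through SLC2A transporters and is phosphorylated by hexokinase. The upper steps convert it to triose phosphates, and the lower steps yield pyruvate and ATP. Several steps have more than 1 isoform, encoded by separate genes. When oxygen is low, the hydroxylases EGLN1 and EGLN3 no longer mark HIF1A for degradation, and HIF1A with ARNT binds DNA at the core RCGTG. Most glycolytic genes, and genes such as Vegfa, Bnip3 and Ankrd37, are known targets. HIF1A itself is controlled mainly as a protein, which these data do not measure.

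Promoter windows of 300 bases, from 250 before to 50 after the start, were taken from RefSeq (GRCm38.p6) for 37 of the 40 genes, in 51 windows. Slc2a3, Ndrg1 and Bnip3l had no entry. The letters ACGTG, 1 of the forms of the HIF core, were searched on both strands, and overlapping matches were counted as 1 place. At least 1 place was present in 29 of the 51 windows (56.9%) and in 19.6% of all 32851 windows. By gene, 26 of 37 (70.3%) had it, against 21.8% of all genes. A match is only a description of the letters, and binding was not measured. The windows below are shown because these genes carry the results that follow. Ldha and Slc2a1 were lower in the libraries numbered 2, Eno3 was higher there, and Ankrd37 and Ero1l were higher with both guides than in EV among the libraries numbered 2. Capitals mark ACGTG or its reverse complement CACGT, and each window is written 5′ to 3′ along the gene.
Ldha (chr7:46845554-46845853, plus strand): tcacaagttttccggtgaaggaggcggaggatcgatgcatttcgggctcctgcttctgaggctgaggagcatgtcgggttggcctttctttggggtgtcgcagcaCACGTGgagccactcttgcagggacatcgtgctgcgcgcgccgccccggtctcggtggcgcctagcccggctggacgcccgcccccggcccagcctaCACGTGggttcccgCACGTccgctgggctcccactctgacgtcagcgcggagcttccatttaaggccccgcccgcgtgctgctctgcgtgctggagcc
Slc2a1 (chr4:119108495-119108794, plus strand): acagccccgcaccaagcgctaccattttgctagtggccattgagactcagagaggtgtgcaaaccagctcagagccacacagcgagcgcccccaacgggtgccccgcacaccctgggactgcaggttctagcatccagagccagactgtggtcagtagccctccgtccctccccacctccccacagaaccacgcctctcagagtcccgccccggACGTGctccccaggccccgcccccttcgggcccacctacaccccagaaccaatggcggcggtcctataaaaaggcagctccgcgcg
Ankrd37 (chr8:45999801-46000100, minus strand): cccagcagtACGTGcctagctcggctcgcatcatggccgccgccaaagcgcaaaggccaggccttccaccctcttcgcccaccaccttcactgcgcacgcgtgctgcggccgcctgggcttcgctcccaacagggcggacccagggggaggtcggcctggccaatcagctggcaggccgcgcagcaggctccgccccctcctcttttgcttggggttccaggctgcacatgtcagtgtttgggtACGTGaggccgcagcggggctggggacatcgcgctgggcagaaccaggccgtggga
Ero1l (chr14:45318523-45318822, minus strand): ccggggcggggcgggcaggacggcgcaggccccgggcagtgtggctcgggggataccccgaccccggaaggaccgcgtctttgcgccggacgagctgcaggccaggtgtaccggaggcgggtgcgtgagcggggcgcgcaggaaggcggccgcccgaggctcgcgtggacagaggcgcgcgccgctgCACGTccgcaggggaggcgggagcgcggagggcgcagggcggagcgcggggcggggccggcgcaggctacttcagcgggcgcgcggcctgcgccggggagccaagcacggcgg
Eno3 (chr11:70656926-70657225, plus strand): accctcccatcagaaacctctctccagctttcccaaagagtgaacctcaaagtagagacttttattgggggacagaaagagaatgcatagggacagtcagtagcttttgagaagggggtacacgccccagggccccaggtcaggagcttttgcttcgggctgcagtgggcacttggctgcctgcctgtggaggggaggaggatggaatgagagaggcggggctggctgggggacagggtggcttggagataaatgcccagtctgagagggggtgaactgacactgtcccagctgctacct
The Ldha window shown, 1 of 2 for this gene, held 3 places, 145, 48 and 34 bases before the start, of which 2 lay in the palindrome CACGTG. The other Ldha window (chr7:46846832-46847131, plus strand) held none. At least 3 places were present in 0.414% of all windows. Slc2a1 had 1 place, 36 bases before its start, and Ero1l had 1, at 63 bases. Ankrd37 had 2, at 241 and 6 bases. Eno3 had none of these letters in its window, but it held the other form of the core, GCGTG, at 1 place. The other windows shown held GCGTG too, at 2 places each for Ldha and Ero1l and at 1 each for Slc2a1 and Ankrd37.

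The 40 genes differed mainly by replicate number. Between the libraries numbered 2 and those numbered 1, within groups, 24 of the 35 tested genes passed a limma adjusted p of 0.05. Of these, 20 were lower and 4 were higher in the libraries numbered 2. This comparison called 47.1% of all 12929 tested genes (6089), 26.9% lower and 20.2% higher, so many other genes differed too. The median log2 difference was -0.86 over the 35 genes and -0.043 over all tested genes. Every one of the 20 lower genes was lower in all 3 libraries numbered 2 than in all 3 numbered 1, a separation seen in 34.1% of all tested genes. The 4 higher genes and Hk3 were separated the other way (27% of all tested genes). Libraries were also scaled by the summed FPKM of genes longer than 200 nt, with the 40 genes left out of the sum. Under that scaling 3888 of 6157 calls were higher, against 2617 of 6089 as deposited, and the median of all genes was 0.11. Of the 35 genes, 25 then passed, 6 of them higher. The glycolytic genes of the upper and lower steps summed to 10124.5, 9954 and 10148 FPKM in the libraries numbered 1 and to 3599.7, 4307 and 4711 FPKM in those numbered 2.

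The median log2 difference of the 35 genes between numbers was -1.08 in EV, -0.76 in sg2 and -0.55 in sg5. Within each group, the summed FPKM of the markers of 3 other cell types was also higher in the library numbered 2. Mast cell and basophil markers (7 of 7 at 1 FPKM or more) summed to between 1554 and 3164 FPKM in the libraries numbered 1 and between 3090 and 3638 FPKM in those numbered 2. Most of that sum was Fcer1a (1081 to 2767 FPKM), and not every marker was higher in number 2: Ms4a2 went from 6.13 to 4.90 FPKM in EV and from 10.04 to 6.68 FPKM in sg5. Macrophage markers (3 of 6) summed to between 85.5 and 105 and between 151 and 169 FPKM, with C1qa at 0 throughout. Stromal and endothelial markers (1 of 5, Pecam1) summed to between 144 and 161 and between 229 and 269 FPKM. Erythroid markers (3 of 7) summed to between 13.1 and 31.7 FPKM and lymphoid markers (1 of 5) to between 1.52 and 2.18 FPKM, with overlap between the numbers. Progenitor markers summed to 1149, 993 and 1322 FPKM in number 1 (EV, sg2 and sg5). In number 2 they summed to 1212, 1277 and 1216 FPKM. Within that list Mpo went from 150.5, 41.5 and 122.9 to 13.0, 12.3 and 14.8 FPKM. Cebpa went from 32.2, 44.3 and 70.2 to 135.7, 216.3 and 208.0 FPKM. The part of these values, or of the short RNAs, in the difference between numbers was not tested.

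**Figure D1:**
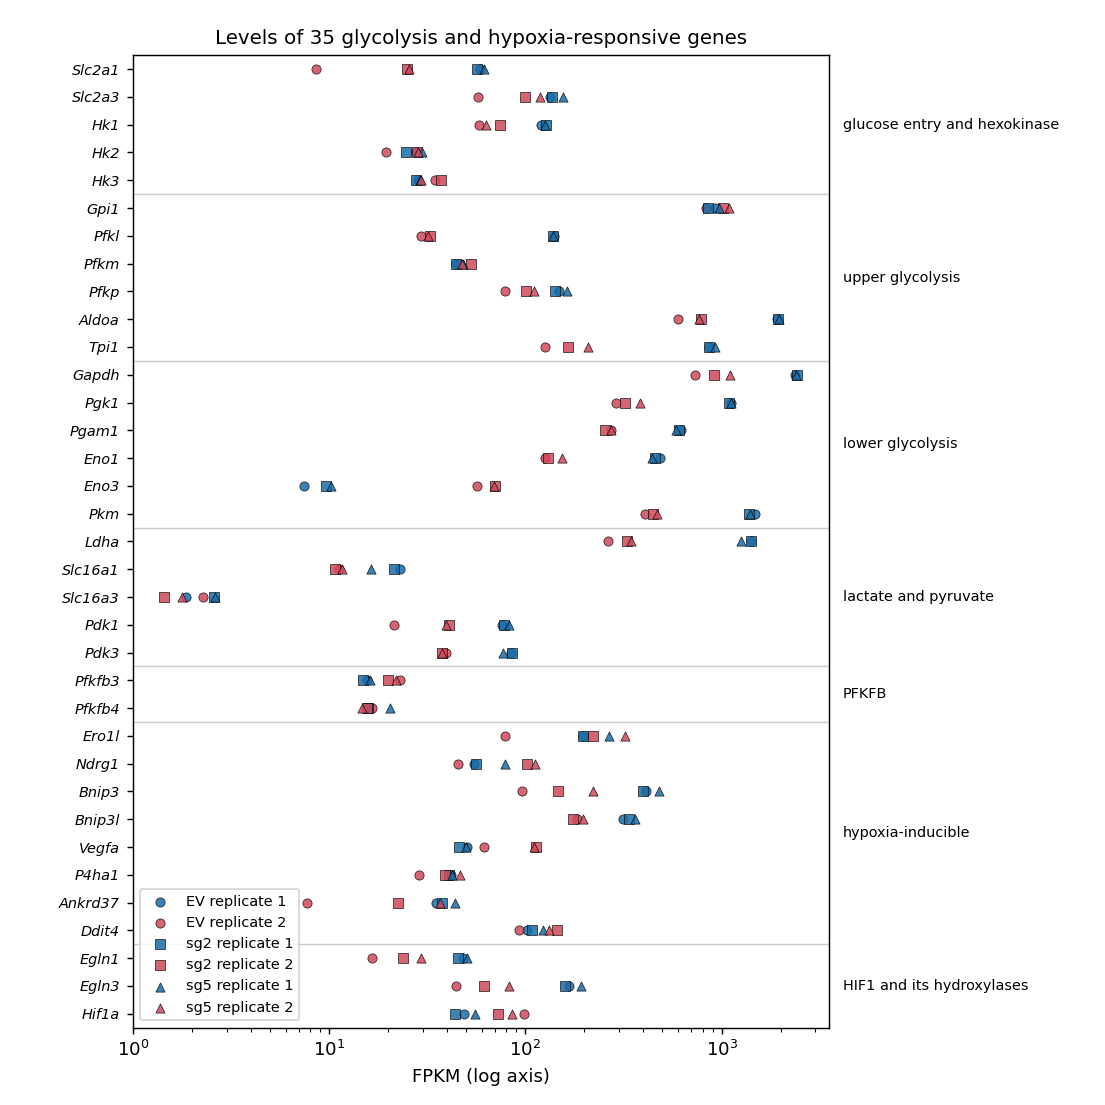
FPKM (log axis) of the 35 tested genes in each of the 6 libraries, ordered by role. Symbols show the group and colours the replicate number. For Tpi1, Ldha and Pfkl the 3 libraries numbered 2 lie far to the left of those numbered 1, and for Eno3 they lie to the right, while Gpi1 and Pfkm lie close together.

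Glucose entry and the hexokinase step split by isoform. Values are given in the order EV, sg2 and sg5. Slc2a1 (ENSMUSG00000028645, GRCm38 chr4:119108711-119137983, plus strand), the GLUT1 transporter, measured 58.5, 56.7 and 61.8 FPKM in the libraries numbered 1 and 8.59, 25.0 and 25.6 FPKM in those numbered 2. It was lower in number 2 by factors of 6.81, 2.26 and 2.42, with a log2 difference of -1.67 (SE 0.32, limma adjusted p = 0.015), and the EV library stood far below the other two. Slc2a3, the GLUT3 transporter, measured 133, 137 and 156 FPKM and 57.6, 99.9 and 119 FPKM, a log2 difference of -0.68 (SE 0.18, limma adjusted p = 0.0364). Neither call held without either sg2 library or either sg5 library. Leaving out 1 library takes its whole group out of this comparison, so those fits rest on the other groups. The log2 difference was then -1.94 (sg2) or -1.89 (sg5) for Slc2a1 and -0.79 or -0.83 for Slc2a3. Hk1, the hexokinase of most tissues, measured 120.3, 127 and 126 FPKM and 58.2, 74.7 and 62.8 FPKM, a log2 difference of -0.93 (SE 0.08, limma adjusted p = 0.00259). Hk2, the insulin- and hypoxia-responsive hexokinase, measured 27.6, 24.7 and 29.7 FPKM and 19.4, 27.9 and 28.3 FPKM and its groups overlapped, with a log2 difference of -0.13 that turned to 0.040 under scaling by summed FPKM. Hk3, a hexokinase of myeloid cells, measured 28.3, 27.6 and 29.1 FPKM and 34.6, 37.2 and 29.2 FPKM. Its log2 difference of 0.24 (SE 0.10, limma adjusted p = 0.113) did not pass, but under scaling by summed FPKM it was 0.40 with an adjusted p of 0.0300.

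Gpi1, the enzyme that turns glucose 6-phosphate into fructose 6-phosphate, had the log2 difference nearest to 0. It measured 931, 853 and 970.2 FPKM in the libraries numbered 1 and 831, 1023 and 1092 FPKM in those numbered 2, and the 2 sets overlapped (log2 difference 0.090, limma adjusted p = 0.501). The 3 phosphofructokinases, which catalyse the committed step, differed from each other. Pfkl (ENSMUSG00000020277, GRCm38 chr10:77986947-78010083, minus strand), the liver type, measured 141, 138 and 138 FPKM and 29.4, 32.7 and 32.0 FPKM. The ranges were tight within each number, and the log2 difference was -2.11 (SE 0.07, limma adjusted p = 0.00151). Pfkp, the platelet type, measured 148, 141 and 163 FPKM and 78.9, 100.6 and 111 FPKM, with a log2 difference of -0.65 (SE 0.10, limma adjusted p = 0.00847). Pfkm, the muscle type, measured 44.5, 44.1 and 48.1 FPKM and 46.5, 52.6 and 47.8 FPKM. Its 2 sets overlapped, with a log2 difference of 0.10 (SE 0.08, limma adjusted p = 0.315), which became 0.27 with an adjusted p of 0.0454 under scaling by summed FPKM.

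Aldoa, the aldolase of muscle and most cells, measured 1921, 1947 and 1972 FPKM and 603, 789 and 770.1 FPKM. It was lower in the libraries numbered 2 by factors of 3.19, 2.47 and 2.56 and had a log2 difference of -1.44 (SE 0.09, limma adjusted p = 0.00192). Aldoc, the brain type, was at most 0.631 FPKM. Tpi1 (ENSMUSG00000023456, GRCm38 chr6:124810586-124814296, minus strand), which interconverts the triose phosphates, had the lowest log2 difference of the 35 genes. It measured 860.0, 866 and 922 FPKM in the libraries numbered 1 and 125, 166 and 208 FPKM in those numbered 2, lower by factors of 6.85, 5.22 and 4.44. The log2 difference was -2.43 (SE 0.13, limma adjusted p = 0.00179). Among the 3 libraries numbered 2, EV was the lowest and sg5 the highest.

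Each of the 5 steps of lower glycolysis had a gene that was lower in the libraries numbered 2. Gapdh, the dehydrogenase that makes NADH, measured 2372, 2427 and 2383 FPKM in the libraries numbered 1 and 733, 916 and 1103 FPKM in those numbered 2, a log2 difference of -1.40 (SE 0.12, limma adjusted p = 0.0027). Pgk1, the first ATP-forming kinase, measured 1118, 1091 and 1122 FPKM and 289, 322 and 383 FPKM, a log2 difference of -1.75 (SE 0.09, limma adjusted p = 0.00179). Pgam1, phosphoglycerate mutase, measured 621, 605 and 584 FPKM and 274, 256 and 274 FPKM, a log2 difference of -1.17 (SE 0.06, limma adjusted p = 0.00179). All 3 genes were separated by number, and the factors were smallest for Pgam1, at 2.27, 2.36 and 2.13. Pkm, pyruvate kinase, measured 1473, 1375 and 1395 FPKM and 407, 449 and 466 FPKM, with a log2 difference of -1.68 (SE 0.08, limma adjusted p = 0.00167).

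The enolases moved apart. Eno1, the form of most cells, measured 487, 457 and 439.6 FPKM and 126, 129.8 and 153 FPKM, a log2 difference of -1.76 (SE 0.10, limma adjusted p = 0.00181). Eno3 (ENSMUSG00000060600, GRCm38 chr11:70657202-70662513, plus strand), the muscle form, measured 7.40, 9.62 and 10.3 FPKM in the libraries numbered 1 and 56.4, 69.9 and 69.1 FPKM in those numbered 2. It was higher by factors of 7.62, 7.26 and 6.72 and had a log2 difference of 2.72 (SE 0.07, limma adjusted p = 0.00139), the highest of the 35 genes. Eno2, the neuronal form, was at most 0.184 FPKM. Of the 31-base words of Eno3, 100% were found in no other gene.

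Several of these genes have near-identical copies, and the sharing of fragments among copies is set by the authors' counting. Gapdh shared at least 5% of its 31-base words with each of 83 other genes, most of them processed pseudogenes. Its value with all copies added was 6538, 6513 and 6465 FPKM in the libraries numbered 1 and 1853, 2589.9 and 2781 FPKM in those numbered 2. Eno1 with its 3 copies was lower in number 2 by factors of 4.12, 3.33 and 3.01, and Pgk1 with its 2 copies by 4.19, 3.44 and 2.92. With copies added to each gene, an alternative chosen after seeing the data, 24 of 35 genes were still called. Absolute levels of Gapdh, Eno1, Pgk1 and Pgam1 are therefore uncertain. Exons of some genes also overlap a gene on the other strand, and whether counting used strand is not given in the sources used here. For Pfkp, 5.58% of exon bases lie in Pitrm1, and for Ankrd37, 3.70% lie in Ufsp2 and 22.7% in Lrp2bp, which was at most 0.358 FPKM.

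**Figure D2:**
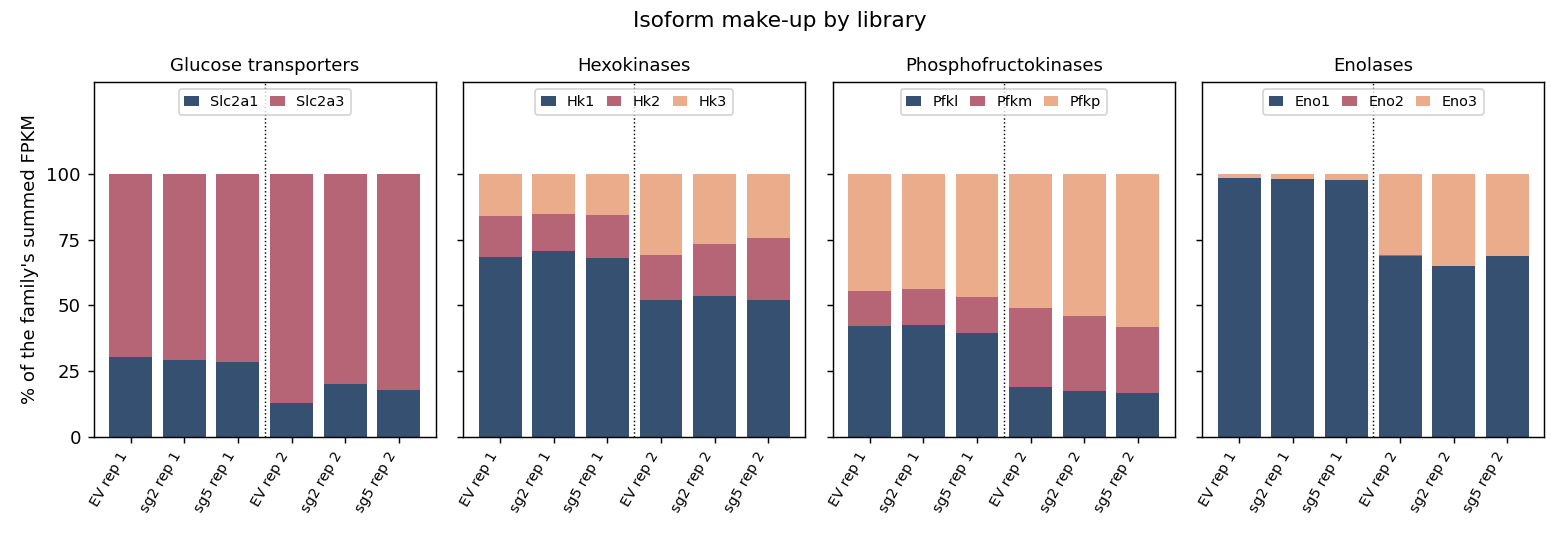
Share (%) of each isoform in the summed FPKM of its family, by library, with the libraries numbered 1 on the left of each dotted line. Of the summed FPKM of Eno1, Eno2 and Eno3, Eno3 is 1.497 to 2.28% in number 1 and 30.96 to 35.0% in number 2. Copies of Eno1 such as Eno1b are left out, and with them the share of Eno3 would be smaller. The shares of Hk1, Pfkl and Slc2a1 are smaller in number 2.

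The isoform make-up differed by number in several families, some of them drawn in the plot of isoform shares. Slc2a1 made up 30.5, 29.2 and 28.4% of the summed FPKM of Slc2a1 and Slc2a3 in the libraries numbered 1 and 13.0, 20.04 and 17.6% in those numbered 2. Hk1 held 68.3, 70.8 and 68.1% of hexokinase signal in number 1 and 51.9, 53.4 and 52.2% in number 2. The share of Hk3 was 16.1, 15.4 and 15.8% in number 1 and 30.8, 26.6 and 24.3% in number 2. Among the phosphofructokinases, Pfkl held 42.2, 42.7 and 39.4% in number 1 and 19.0, 17.6 and 16.8% in number 2. The share of Pfkm was 13.3, 13.6 and 13.8% and then 30.1, 28.3 and 25.1%. Pfkp was the main form in every library, at 43.7 to 46.8% and 51.0 to 58.1%. Pfkfb3 held 49.8, 48.4 and 44.3% of the sum of Pfkfb3 and Pfkfb4 in number 1 and 58.1, 56.0 and 60.01% in number 2. These shares are descriptions and follow from the levels above. The enolase shares drawn leave out the copies of Eno1. Eno1 with its copies measured 309, 354 and 379 FPKM in number 2, beside 126, 129.8 and 153 FPKM for Eno1 alone. With these copies the share of Eno3 would be smaller. At the aldolase and lactate dehydrogenase steps Aldoa and Ldha held at least 99.9% in every library.

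All 5 tested lactate and pyruvate genes had a negative log2 difference between the numbers, and 4 of them were called lower. Among all tested genes 26.9% were called lower. Ldha (ENSMUSG00000063229, GRCm38 chr7:46841475-46855627, plus strand), which reduces pyruvate to lactate, measured 1415, 1416 and 1253 FPKM in the libraries numbered 1 and 264, 329 and 346 FPKM in those numbered 2. It was lower by factors of 5.37, 4.30 and 3.62, with a log2 difference of -2.12 (SE 0.12, limma adjusted p = 0.00181). Ldhb, the heart form, was at 0 in the libraries numbered 1 and at most 0.115 FPKM in those numbered 2. Slc16a1, the lactate transporter MCT1, measured 22.9, 21.4 and 16.3 FPKM and 11.2, 10.7 and 11.6 FPKM. Its log2 difference of -0.79 (SE 0.13, limma adjusted p = 0.00944) passed. Without 1 EV or 1 sg2 library, which takes that group out of the comparison, it did not pass and was -0.70 or -0.71. Slc16a3, the lactate exporter MCT4, was low, at 1.86, 2.60 and 2.62 FPKM and 2.26, 1.44 and 1.78 FPKM, and its 2 sets overlapped. The kinases that switch off pyruvate dehydrogenase were both lower in number 2. Pdk1 measured 76.0, 77.7 and 82.8 FPKM and 21.4, 40.6 and 39.3 FPKM, a log2 difference of -1.25 (SE 0.19, limma adjusted p = 0.00757). Pdk3 measured 84.3, 85.8 and 77.3 FPKM and 39.4, 37.7 and 37.6 FPKM, a log2 difference of -1.09 (SE 0.06, limma adjusted p = 0.00182). Within number 2, Pdk1 was about as high with sg2 as with sg5 and lower in EV, whereas Pdk3 was nearly level across the groups.

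The 2 PFKFB enzymes, which set the level of the phosphofructokinase activator fructose 2,6-bisphosphate, did not follow the glycolytic steps. Pfkfb3 measured 15.6, 14.8 and 16.2 FPKM in the libraries numbered 1 and 23.0, 19.9 and 22.0 FPKM in those numbered 2, a log2 difference of 0.45 (SE 0.07, limma adjusted p = 0.00769). It lost its call without either EV library, which takes EV out of the comparison, and its log2 difference was then 0.41. Pfkfb4 measured 15.7, 15.8 and 20.4 FPKM and 16.6, 15.6 and 14.7 FPKM, and the sets overlapped (log2 difference -0.13, and 0.033 under scaling by summed FPKM).

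Of 8 hypoxia-inducible genes tested, Bnip3 and Bnip3l were lower, Vegfa was higher in the libraries numbered 2 and 5 did not pass. Among all tested genes 26.9% were called lower and 20.2% higher, so these counts do not set the hypoxia-inducible genes apart. Bnip3, a mitophagy receptor, measured 413, 400.1 and 477 FPKM and 96.5, 147 and 222 FPKM, a log2 difference of -1.54 (SE 0.20, limma adjusted p = 0.00539). Its relative Bnip3l measured 313, 339 and 361 FPKM and 183, 175 and 198 FPKM, a log2 difference of -0.86 (SE 0.06, limma adjusted p = 0.00226). Both were separated by number. Vegfa, the endothelial growth factor, measured 50.6, 46.1 and 49.9 FPKM and 61.9, 113 and 110.3 FPKM, a log2 difference of 0.90 (SE 0.21, limma adjusted p = 0.0259). The EV library was the lowest of the 3 numbered 2. Without 1 sg2 or 1 sg5 library, which takes that group out of the comparison, Vegfa did not pass. Its log2 difference was then 0.71 (sg2) or 0.78 (sg5).

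Of the 5 that did not pass, Ero1l, Ndrg1 and Ankrd37 were lowest in EV within number 2 by a wide margin. Ero1l (ENSMUSG00000021831, GRCm38 chr14:45283087-45318771, minus strand), the oxidase that helps form disulfide bonds in the endoplasmic reticulum, measured 197, 197 and 266 FPKM in number 1 and 78.5, 222 and 323 FPKM in number 2. Of the 3 groups, EV alone was lower in number 2. Ndrg1, a stress-response gene, measured 54.9, 56.0 and 78.4 FPKM and 45.3, 102 and 112 FPKM. Without either EV library, which leaves only the guides in the comparison, its log2 difference was 0.68. Ankrd37, an ankyrin-repeat protein, measured 35.0, 37.6 and 43.8 FPKM and 7.75, 22.3 and 36.7 FPKM, so EV again stood lowest, with a log2 difference of -1.01 (SE 0.36, limma adjusted p = 0.077). P4ha1, a collagen prolyl hydroxylase subunit, measured 42.0, 41.0 and 42.2 FPKM and 28.6, 38.8 and 46.2 FPKM. Ddit4, an inhibitor of mTORC1, measured 102, 108 and 122 FPKM and 92.4, 145 and 132 FPKM. For P4ha1 and Ddit4 the numbers overlapped. P4ha2, another hydroxylase subunit, was at most 0.170 FPKM, and Adm, a vasodilator peptide, at most 0.268 FPKM.

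Hif1a and its hydroxylases moved in opposite directions. Hif1a, the regulated subunit, measured 48.6, 43.8 and 55.2 FPKM in the libraries numbered 1 and 98.4, 72.5 and 85.9 FPKM in those numbered 2, a log2 difference of 0.78 (SE 0.09, limma adjusted p = 0.0045). Egln1, its main hydroxylase, measured 47.9, 45.5 and 50.7 FPKM and 16.5, 23.9 and 29.4 FPKM, a log2 difference of -1.05 (SE 0.16, limma adjusted p = 0.00769). Egln3, a hydroxylase that is itself a HIF target, measured 166, 159 and 193 FPKM and 44.5, 61.8 and 82.9 FPKM, a log2 difference of -1.48 (SE 0.15, limma adjusted p = 0.00314). All 3 genes were separated by number.

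**Figure D3:**
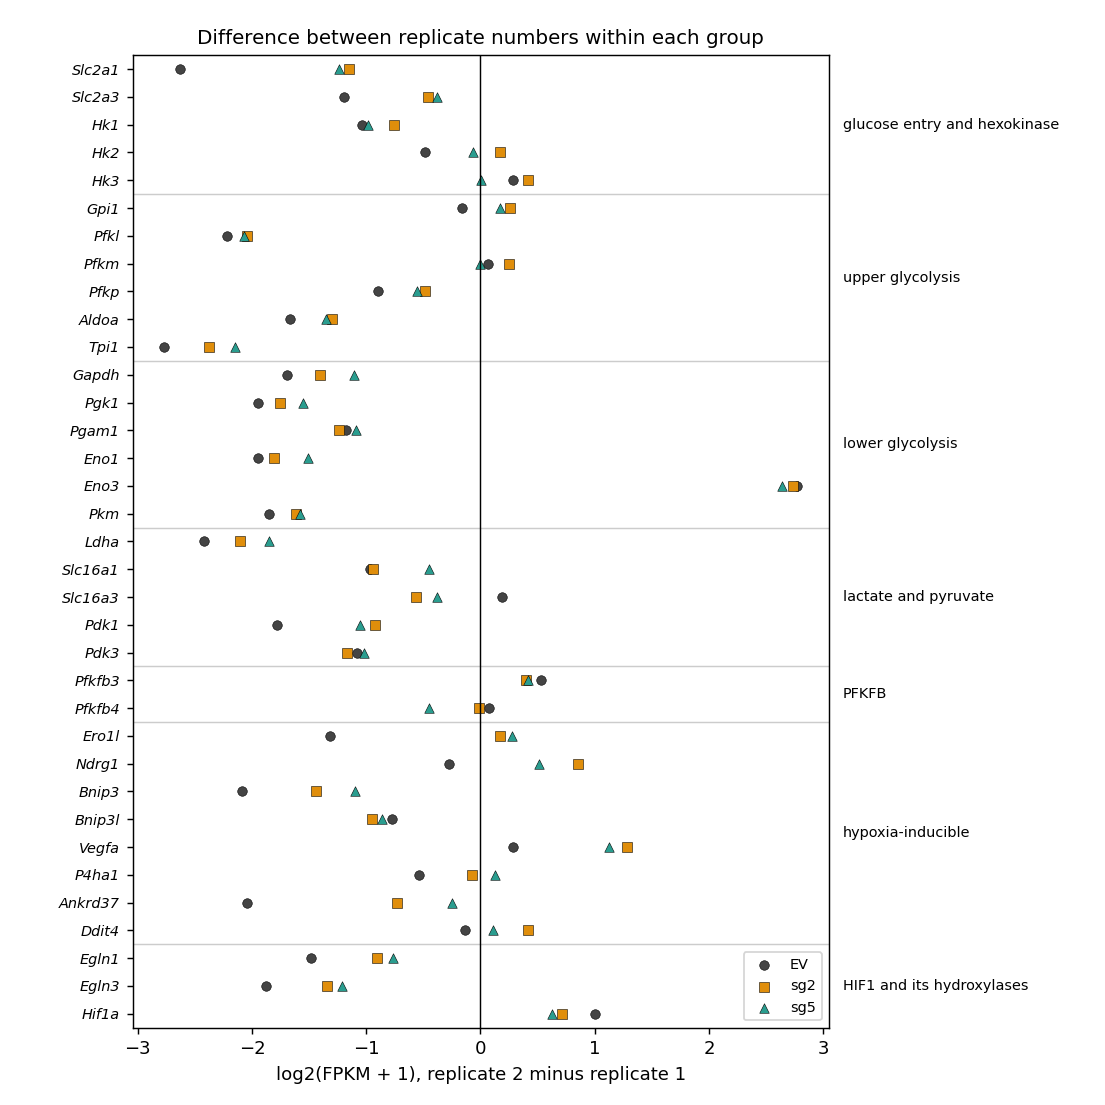
Difference in log2(FPKM + 1) between the library numbered 2 and the library numbered 1 of each group, for the 35 tested genes by role, with 1 point a group and a line at 0. Points of the 3 groups lie together for Pfkl, Pdk3 and Eno3, while for Slc2a1, Ero1l and Ankrd37 the EV point lies well to the left of both guides.

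Counts for other genes of the same pathways stand beside 47.1% of all tested genes called, 26.9% lower and 20.2% higher. Of 47 further glycolysis and pyruvate genes, 34 were tested, 13 were lower, 5 were higher, and the median log2 difference was -0.25. The lower set included the glycogen enzymes Pgm2 (log2 difference -1.60), Pygl (-1.19) and Gys1 (-1.10), the pyruvate carrier Mpc2 (-0.68) and the pyruvate dehydrogenase complex genes Pdhx (-0.76), Pdhb (-0.57), Dlat (-0.56), Dld (-0.45) and Pdha1 (-0.34). The higher set held Pgam2 (1.75), the muscle form of phosphoglycerate mutase, the pyruvate dehydrogenase phosphatase Pdp1 (0.76), the pentose phosphate genes Taldo1 (0.68) and Pgd (0.51), and Gpd1l (0.43). Other genes of the same functions were lower, namely the phosphatase Pdp2 (-0.66) and the pentose phosphate gene Tkt (-0.44). Pgam2 measured 4.74, 5.01 and 5.35 FPKM in number 1 and 17.9, 20.2 and 19.9 FPKM in number 2. Like Eno3 it was a muscle isoform with higher values there. Other muscle forms were not: Pfkm did not pass (0.10), and Aldoa was lower (-1.44). Of 47 further HIF pathway genes, 31 were tested, 14 were lower, 5 were higher, and the median was -0.31, beside the same shares of all genes. The lower set included Tfrc (-2.27), the transferrin receptor, Mif (-2.16), Fam162a (-1.97), Higd1a (-0.88), Ak4 (-0.70), Vhl (-0.40) and Egln2 (-0.31). The higher set was Cxcr4 (0.50), Car9 (0.50), Wsb1 (0.42), Mxi1 (0.29) and Kdm4c (0.25). The further genes named here as lower or higher had limma adjusted p-values between 0.00156 and 0.0471.

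By guide, none of the 35 genes passed. The 4 guide libraries against the 2 EV libraries gave 0 calls among the 35 genes and 0 among all 12929 (0% called) with limma. An unadjusted p under 0.05 was reached by 2 of the 35 and by 169 of all genes (1.31%). These 2 were Ero1l, with a log2 difference of 0.99 (SE 0.39), and Ndrg1, with 0.75 (SE 0.30), each with a limma adjusted p of 0.9999. With 1 library left out, the difference ranged from 0.33 to 1.64 for Ero1l and from 0.61 to 0.94 for Ndrg1, and with the block from 0.22 to 1.76 and from 0.27 to 1.23. In both, as in Ddit4 (0.38, SE 0.16), all 4 guide libraries lay above both EV libraries. This separation held for 3 of the 35 genes and for 2.54% of all tested genes. The log2 difference was positive in 29 of the 35 genes, with a median of 0.20, against -0.0046 over all tested genes. Slc2a1 (0.74, SE 0.78) and Ankrd37 (0.98, SE 0.57) had differences of like size but wider errors.

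With the replicate number as a block, 5 of all 12929 genes passed (0.0387%) and again 0 of the 35. The block brought 7 of the 35 to an unadjusted p under 0.05 (5.72% of all genes), namely Eno3, Ddit4, Ndrg1, Slc2a3, Pdk1, Ero1l and Ankrd37. The smallest was that of Eno3, with a log2 difference of 0.34 (SE 0.07, limma adjusted p = 0.449). The median of the 35 genes turned on the EV libraries. It was -0.29 without EV replicate 2 and 0.68 without EV replicate 1, and with the block 0.019 and 0.36. Without a block, leaving out 1 EV library leaves EV with 1 number beside guides of both. The difference between numbers therefore enters the values -0.29 and 0.68. On simulated data of this design with 12929 genes, 29 of 100 genes shifted by 1 log2 unit and 92 of 100 shifted by 3 were found without a block, and 78 and 97 with it. The shifted genes were drawn from those with a mean of at least 5 FPKM, so these rates do not cover lower genes.

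Each guide by itself likewise gave no call among the 35, and both were set against the same EV libraries. For sg2 against EV, limma called 0 of the 35 genes and 1 gene in all (0.00773%), and the median of the 35 was 0.17. None of the 35 had an unadjusted p under 0.05, against 150 of all genes (1.16%). For sg5 against EV it called 0 of the 35 and 0 in all (0%), with a median of 0.23, and 1 of the 35 (Ero1l) and 176 of all genes (1.36%) had an unadjusted p under 0.05. For sg5 against sg2 it also called 0 of the 35 and 0 in all (0%), with a median of 0.12 and 27 of 35 positive. That median ranged from -0.23 (without sg2 replicate 2) to 0.45 with 1 library left out, and was -0.13 without sg5 replicate 1. With sg5 replicate 2 grouped as sg2, the medians were 0.032 for sg2 against EV (19 of 35 positive), 0.59 for sg5 against EV and 0.49 for sg5 against sg2. In that grouping sg5 holds 1 library, numbered 1, so for sg5 the group and the number cannot be told apart. Neither that grouping nor leaving out 1 library keeps the numbers equal between groups, so the difference between numbers enters these medians. For sg5 against sg2 as grouped by title, an unadjusted p under 0.05 was reached by 0 of the 35 and by 111 of all genes (0.859%). With the block and grouping by title, 3 genes were called for sg2 against EV and 2 for sg5 against EV (0.0232 and 0.0155%). For sg5 against sg2 it was 0 (0%), and none of the called genes was among the 35.

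The differences between guides and EV were smaller in number 1 than in number 2 at the median of the 35 genes. In the libraries numbered 1, the median log2 difference of the 35 genes was -0.026 for sg2 minus EV and 0.079 for sg5 minus EV. In those numbered 2 it was 0.32 and 0.39. The difference was positive in 16 of the 35 genes for sg2 and 27 for sg5 in number 1, and in 27 and 29 in number 2. Both guides lay above EV in 14 of the 35 genes in number 1 (34.9% of all genes) and in 26 in number 2 (29.4% of all genes). No gene of the 35 was at least 1.5 times EV with both guides in number 1 (2.27% of all genes), while 8 were in number 2 (3.06% of all genes). The EV library numbered 2 was the lowest of all 6 libraries in 23 of the 35 genes (14.2% of all genes) and the highest in 2, Hif1a and Pfkfb3 (14.5% of all genes). With 1 library per group and number, these counts carry no test.

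The 8 genes were Ero1l, Ankrd37, Slc2a1, Ndrg1, Bnip3, Slc2a3, Pdk1 and Vegfa. In number 2, Ankrd37 was at 2.88 times EV with sg2 and 4.73 times with sg5, and in number 1 at 1.07 and 1.25 times. Ero1l stood at 2.83 times EV with sg2 and 4.11 times with sg5 in number 2 and at 1.00 and 1.35 times in number 1. For Slc2a1 the values were 2.91 times EV with sg2 and 2.97 times with sg5, against 0.969 and 1.06 times in number 1. Ndrg1 was at 2.26 times EV with sg2 and 2.49 times with sg5, Pdk1 at 1.90 times EV with sg2 and 1.84 times with sg5 and Vegfa at 1.83 times EV with sg2 and 1.78 times with sg5 in number 2. In number 1 these ratios were 1.021 and 1.43 for Ndrg1, 1.022 and 1.09 for Pdk1 and 0.912 and 0.987 for Vegfa, so Ndrg1 was above EV with sg5 in both numbers. Bnip3 was at 1.52 times EV with sg2 and 2.30 times with sg5, and Slc2a3 at 1.73 times EV with sg2 and 2.07 times with sg5, against 0.968 and 1.15 times for Bnip3 and 1.03 and 1.17 times for Slc2a3 in number 1. The glycolytic enzymes differed less. In number 2, Tpi1 was at 1.32 times EV with sg2 and 1.66 times with sg5, Ldha at 1.25 times EV with sg2 and 1.31 times with sg5 and Pfkl at 1.11 times EV with sg2 and 1.09 times with sg5.

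**Figure D4:**
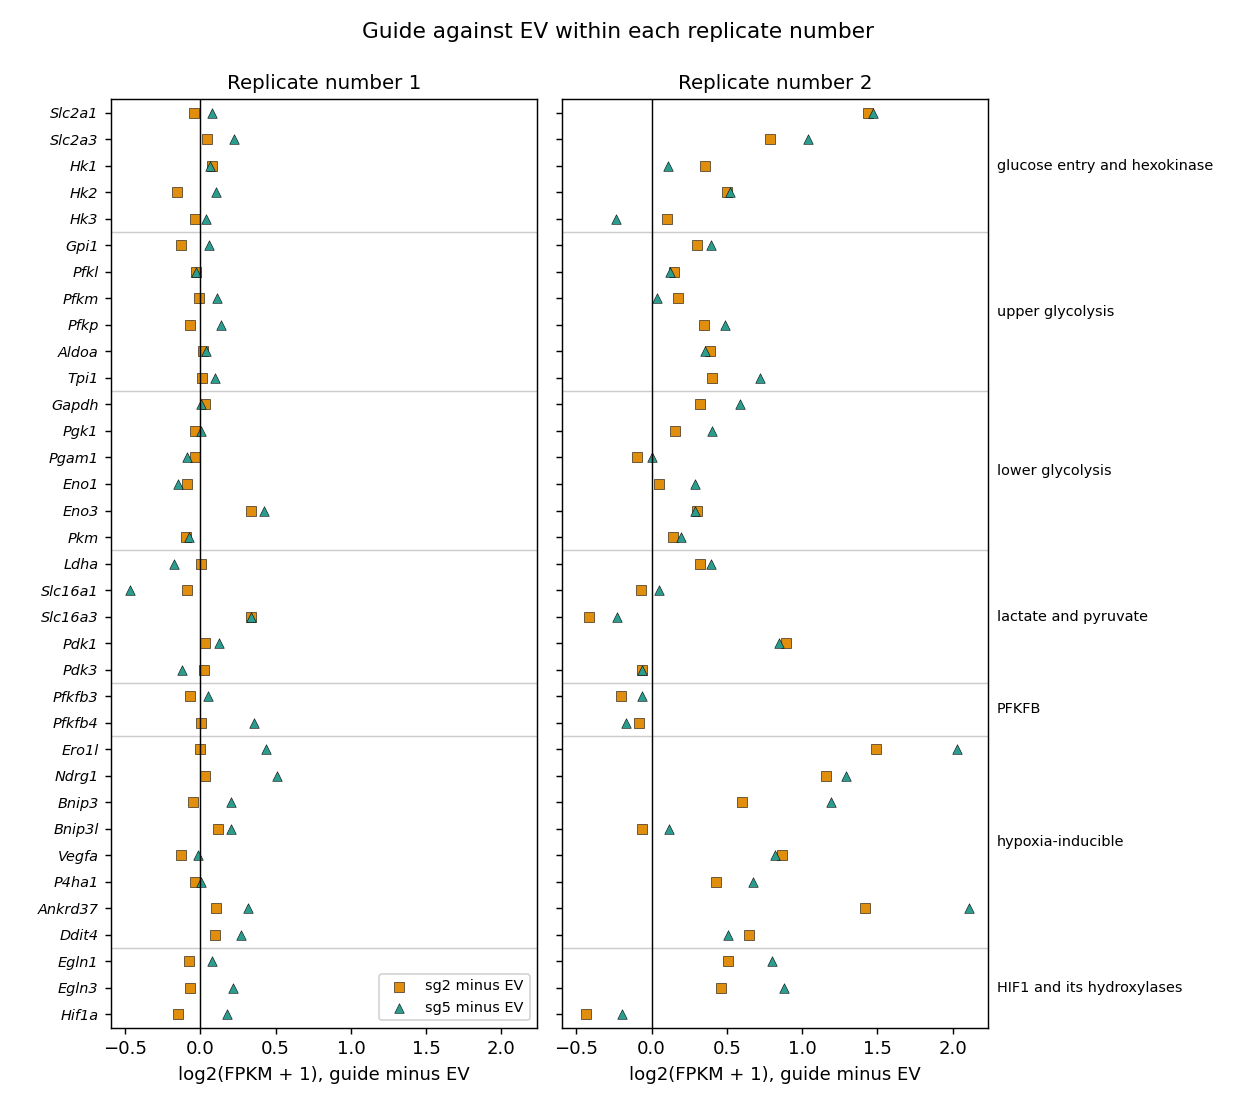
Difference in log2(FPKM + 1) between each guide library and the EV library of the same number, for the 35 tested genes by role, with number 1 on the left and number 2 on the right. In number 1 the points lie near 0 (medians -0.026 and 0.079), and in number 2 Ankrd37, Ero1l, Slc2a1 and Ndrg1 lie farthest to the right.

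The difference between the numbers was tested as an interaction of guide with replicate number. limma called 0 of the 35 genes and 0 of all 12929 (0% called), with 11 of the 35 and 541 of all genes (4.18%) at an unadjusted p under 0.05. The smallest was that of Slc2a1, whose guide difference was 1.44 larger on the log2 scale in number 2 (SE 0.14, limma adjusted p = 0.382). Over 9 settings, the reported one included, that adjusted p ranged from 0.0791 to 0.664. Next came Vegfa at 0.92 (SE 0.13, limma adjusted p = 0.472) and Pdk1 at 0.80 (SE 0.13, limma adjusted p = 0.596). The other 8 were Ankrd37 (1.55), Ero1l (1.54), Ndrg1 (0.96), Slc2a3 (0.78), Egln1 (0.65), P4ha1 (0.57), Ldha (0.44) and Aldoa (0.34). The median over the 35 genes was 0.38, and 27 were positive, against a median of -0.0095 over all tested genes. On simulated data with 12929 genes, and shifted genes drawn as before, this test found 12 of 100 genes shifted by 1 log2 unit and 74 of 100 shifted by 3. Each number holds 1 EV library, so the spread in this test comes only from the difference between sg2 and sg5 within a number. A difference of that EV library and a difference between numbers in the response to the guides cannot be told apart.

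Markers of mature neutrophils differed between EV and the guides. They summed to 453 and 689 FPKM in EV and to between 141 and 196 FPKM with the guides (6 of 10 markers at 1 FPKM or more, with Retnlg at 0 throughout). Within the list Cxcr2 went the other way, at 4.89 and 8.58 FPKM in EV, 5.65 and 9.87 with sg2 and 7.88 and 11.4 with sg5. The mast cell and basophil sum was higher with the guides within each number. In number 1 EV held 1554 FPKM against 2259 and 3164, and in number 2 it held 3090 against 3425 and 3638. Fcer1a made up most of every sum. Hdc went the other way in number 2, where EV held 1.99 FPKM against 1.05 (sg2) and 1.22 (sg5). Mcpt8 in number 2 was lower than EV (1.61 FPKM) for sg2 (1.17) but not for sg5 (3.51). In number 1 both genes were higher with the guides. Each other marker of that list was above EV for both guides in both numbers. The part of these markers in the differences of Ero1l, Ndrg1 and Ddit4 was not tested. Among the further glycolysis and pyruvate genes, guides against EV gave 0 calls of 34 and 14 positive differences. The smallest p-values were those of Pgd (log2 difference -0.62, SE 0.27) and Slc2a6 (log2 difference 0.31, SE 0.14). Among the further HIF pathway genes it gave 0 calls of 31 and 25 positive differences. The smallest were those of Nos2 (log2 difference 2.07, SE 0.65) and Plod1 (log2 difference 0.39, SE 0.13).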

How the data were processed

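The authors deposited 1 table of FPKM values per library for 6 libraries. Kallisto 0.43.0, DESeq2 and the builds GRCm38 and mm10 appear in the submitters' processing notes, without their roles. How FPKM was computed is not given in the sources used here. Gene IDs of 40 of 40 genes were found in GENCODE M21 (GRCm38), which gave the positions.

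Values were taken as log2(FPKM + 1), a scale that understates changes of low genes. Of 26126 genes above 0, the 12929 whose mean reached 1 FPKM were kept. The test was limma with its trend option (version 3.58.1, R 4.3.3), Benjamini-Hochberg adjustment over all 12929 genes and a threshold of 0.05. Tables and plots were made with Python 3.11.15, pandas 2.3.3, numpy 2.4.6 and matplotlib 3.10.9. The comparisons were guides against EV, each guide against EV, sg5 against sg2, replicate number 2 against 1 with the groups as covariate, and guide by number. Low FPKM values lay near whole multiples of 1 fragment (92.1 to 97.7% within 0.15 fragments), which gave the implied depth. At 1 kb, 3 fragments correspond to between 0.0656 and 0.0946 FPKM, for counting error only.

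Across genes, the difference between the numbers correlated between groups at 0.611 (EV and sg2), 0.591 (EV and sg5) and 0.583 (sg2 and sg5). The numbers were treated as pairing the libraries. The guide comparisons are nevertheless given from the planned fits without a block, and the fit with the block is given beside them where it changes a count. That reading of the numbers rests on the values, as no label says what the number stands for.

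Values in every library are given for genes past the threshold, for members of isoform families and for the smallest p of each role. Others among the 40 are given by range or value, and the remaining named values were chosen after they were seen. The 40 genes and the lists of other pathway genes and markers were chosen with earlier results of these data known. The procedure was tested on simulated data. Alternatives were the replicate block, other scalings, pseudocount and filter, and leaving out each library.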

Additional observations from a re-analysis of the deposited data

Results flagged for a closer look

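Each of the 35 tested genes was checked for a library standing apart among the 4 guide libraries, and 1 was found. Hk3 measured 37.2 FPKM in sg2 replicate 2 and between 27.6 and 29.2 FPKM in the other 3, so that the gap to the nearest library was 0.831 of the whole range and just past Dixon's 95% critical value. Chance flags about 1 in 20 such groups.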

How the results depend on the processing

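The count of the 40 genes called stayed within 1.5 times its reported value in every comparison and alternative run, and no called gene changed direction. With the replicate block, genes called over the whole table were 5 for guides against EV (also with median-ratio scaling), 3 for sg2 against EV and 2 for sg5 against EV, and the block changed no call among the 40 genes. Without a filter on low values they were 6, 0 and 18, with 23 for sg5 against sg2 and 243 for guide by number. With sg5 replicate 2 grouped as sg2, the median of the 35 genes was 0.032 for sg2 against EV, 0.59 for sg5 against EV and 0.49 for sg5 against sg2. In that grouping sg5 holds 1 library, numbered 1, so for sg5 the group and the number cannot be told apart. Leaving out 1 library at a time gave 0 to 1 genes for guides against EV (0 to 2 with the block, chosen after seeing the data), 0 for sg2 against EV, and 3036 to 4277 for replicate number (3036 to 3171 without 1 EV or 1 sg2 library). The median of the 35 genes then ranged from -0.29 to 0.68 for guides against EV, from -0.31 to 0.73 for sg2, from -0.23 to 0.76 for sg5 (lowest without EV replicate 2, highest without EV replicate 1), from -0.23 to 0.45 for sg5 against sg2 (negative without sg2 replicate 2 or sg5 replicate 1), and from 0.31 to 0.42 for guide by number. Apart from guide by number, the fits behind these medians had no block. Leaving out 1 library of a compared group makes the numbers unequal between groups, so the difference between numbers enters those medians. What else enters them was not tested. For replicate number, leaving out 1 library takes its whole group out of the comparison. With EV replicate 1 or 2 left out, guide by number could not be fitted.

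For guides against EV, only 12 of the 35 genes were followed singly, so the list below is not complete. Without EV replicate 2, the difference was positive in 12 of all 35 genes, against 29 as reported. Among the genes followed, leaving out 1 library without a block turned the direction of Ankrd37 (range -0.036 to 2.01), Egln1 (-0.41 to 1.07), Eno3 (-1.05 to 1.72), Gapdh (-0.61 to 1.08), Pdk1 (-0.42 to 1.36), Pfkfb3 (-0.33 to 0.19), Slc2a1 (-0.58 to 2.05) and Slc2a3 (-0.076 to 1.12), and with the replicate block only that of Gpi1 (-0.033 to 0.35). For replicate number it turned Ddit4 (-0.012 to 0.26), Ero1l (-0.57 to 0.22), Hk2 (-0.28 to 0.052), P4ha1 (-0.31 to 0.025) and Pfkfb4 (-0.23 to 0.030), none of them called.

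Scaling by summed FPKM of genes longer than 200 nt, the 40 genes left out, moved the median of all genes between numbers from -0.043 to 0.11. Calls were then 3888 higher of 6157, against 2617 of 6089 as reported and 2997 of 6029 with median-ratio scaling. Of the 35 genes, 25 were called, 6 of them higher, and Hk2 (0.040), P4ha1 (0.0063) and Pfkfb4 (0.033) turned. Slc2a3 was not called under that scaling (adjusted p = 0.0854), nor with replicate number alone (0.0666), nor, with Slc2a1 and Vegfa, without the filter (0.0565 to 0.104). Depth limits the 5 genes under the filter.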
